A study of Mus musculus with 12 samples.

Results

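Genes of myeloid and B cells were examined in CD8+ progenitor T cells (T_prog_) that had been sorted from pancreatic lymph nodes. The 37 genes were chosen by symbol as markers of macrophages, monocytes, dendritic cells and B cells, together with MHC class II genes, and all 37 were found among the 25860 genes listed in the RNA-seq table. The RNA-seq and ATAC-seq experiments compared *NOD-TCR 8.3 WT* with *NOD-TCR 8.3 UTX TCD* mice (each assay had 3 libraries of either genotype) to ask how the histone demethylase UTX shapes transcription and chromatin in these cells. All mice were on the nonobese diabetic (NOD) background and carried the transgenic 8.3 T cell receptor, which recognizes the β cell antigen IGRP. UTX TCD mice had floxed alleles of *Kdm6a*, the X-linked gene for UTX, and an Lck-driven Cre that acts in T cells. Controls lacked Cre and were UTX sufficient, and the methods of the study state that females were used. The age of the mice behind these libraries was not given in the sources used here. The methods describe the sorted cells as Ly108+CD39-, while the sample labels describe them as Ly108+ without CXCR6.

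Macrophages and monocytes take up particles through scavenger, Fc and complement receptors, break them down in lysosomes and depend on the transcription factors PU.1 and C/EBP. B cells recognize antigen through surface immunoglobulin paired with CD79A and CD79B, and their identity depends on EBF1 and PAX5. Both lineages load peptides on MHC class II for CD4+ T cells, whereas mouse T cells as a rule do not display MHC class II, and a lymph node holds all of these cells beside the CD8+ T cells.

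The RNA-seq libraries held 146456724, 144503203 and 193568919 counted reads in WT replicates 1, 2 and 3. They held 61512402, 175462433 and 187275082 in UTX TCD replicates 1, 2 and 3. Values are normalized counts, meaning reads per gene divided by 1 size factor per library. A single read was worth 2.25 normalized counts in the shallow UTX TCD replicate 1 and between 0.737 and 0.991 in the other libraries, so low values in that library moved in coarser steps. limma was run on log2(normalized count + 1) for genes whose mean over all libraries reached 10 normalized counts. A gene was called at a Benjamini-Hochberg adjusted p under 0.05, taken over all 14459 genes tested, and an absolute log2 fold change over 0.5. Every log2 fold change is UTX TCD over WT, and this scale understates the change of genes with few reads. Genotypes are said not to overlap where every library of 1 genotype was above every library of the other. That held for 51.9% of all genes tested, so a lack of overlap alone does not set a gene apart.

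*Kdm6a* served as the check of the labels. Its normalized count was 28365, 28949 and 29172 in WT and 24158, 24792 and 24579 in UTX TCD libraries, with no overlap between genotypes. The difference was small (log2 fold change -0.23, SE 0.04, adjusted p = 0.00114), and a count over a whole gene cannot tell the floxed exons from the others. All 18 T cell markers passed the filter, and limma called 0 of them, as did edgeR and DESeq2, although 13 had an unadjusted p under 0.05. Their median log2 fold change was -0.14. Their summed normalized count was 1960353, 1857730 and 1871499 in WT and 1917459, 1829839 and 1730302 in UTX TCD libraries. *Cd8a*, a chain of the CD8 coreceptor, was counted at 272448, 270012 and 274004 in WT and 311527, 313000 and 270975 in UTX TCD libraries. Its partner chain *Cd8b1* was lower without overlap, at 148808, 138851 and 136749 in WT and 121688, 111349 and 95740 in UTX TCD libraries (log2 fold change -0.37, SE 0.08, adjusted p = 0.00634, under the fold limit). Within the T cell receptor complex *Cd3e* was higher without overlap (log2 fold change 0.17, adjusted p = 0.0414), while *Cd3d* (-0.28, adjusted p = 0.00485) and *Cd3g* (-0.26, adjusted p = 0.00631) were lower, all under the fold limit. Per kb of merged exon length, *Cd3e*, *Cd8a* and *Cd8b1* stood at percentiles 99.1, 99.7 and 99.8 of tested genes in WT.

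UTX TCD replicate 3 stood apart for many B cell genes, in both directions, so the results that bear on it are given with and without it. It held the highest value of the 6 libraries for 6 of the 11 B cell genes and for 15 of 30 other B cell genes. Over all 25860 listed genes it was highest for 4022, but 4998 of them had 0 reads in every library and could not count. Of the B cell genes, 0 were without reads in every library. For some B cell genes UTX TCD replicate 3 was instead the lowest of the 6 libraries, among them *Ighm*, *Ighd* and *Cd79b*, at 81282, 565 and 470. It was highest for 7 of 30 other monocyte and macrophage genes, as many as UTX TCD replicate 1. The tally was 1 of 10 for myeloid surface genes and 3 of 8 for erythroid and platelet markers. Some genes of other cell types were apart in it. The monocyte chemokine receptor gene *Ccr2* was at 37.6, 37.5 and 38.9 in WT and 92.2, 61.7 and 239 in UTX TCD libraries. *Ccr2* was called higher (log2 fold change 1.52, SE 0.43, adjusted p = 0.0204). The macrophage galectin gene *Lgals3* was at 131 in UTX TCD replicate 3 against 31.3 to 53.7 elsewhere, and the globin gene *Hba-a1* at 130 against 20.8 to 61.4. Of the 11 genes called with all libraries, 10 were called without UTX TCD replicate 3, and *Ms4a1* was not (log2 fold change 1.21, adjusted p = 0.112). What set this library apart was not tested.

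Of the 37 genes, 25 passed the filter and 12 did not. In UTX TCD cells 5 of the 25 were called higher and 6 were called lower, 11 in all, while 17.6% of all genes tested were called, 10.5% higher and 7.05% lower. The median log2 fold change of the 25 was 0.28, against 0.00 over all genes tested. Genotypes did not overlap for 14 of the 25, against 51.9% of all genes tested. *Cd163*, *Clec12a* and *Csf1r* passed the filter through their WT libraries alone, as did *Itgax* and *Cela1* below and, through the UTX TCD libraries, *Cebpa* and *Siglecg*. At the level of the lower genotype in both they would not have been tested, so a gene that low had to differ to enter. The counts of calls are therefore a description only. In these bulk libraries, fewer cells of a type and less RNA per cell cannot be told apart. The changes ran in different directions within each lineage. The myeloid surface genes *Cd163*, *Csf1r*, *Clec12a* and *Fcgr3* and the B cell genes *Cd79b* and *Pou2af1* fell, while *Mpeg1*, *Cd22*, *Ms4a1*, *Cr2* and *H2-Ab1* rose.

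**Figure D1:**
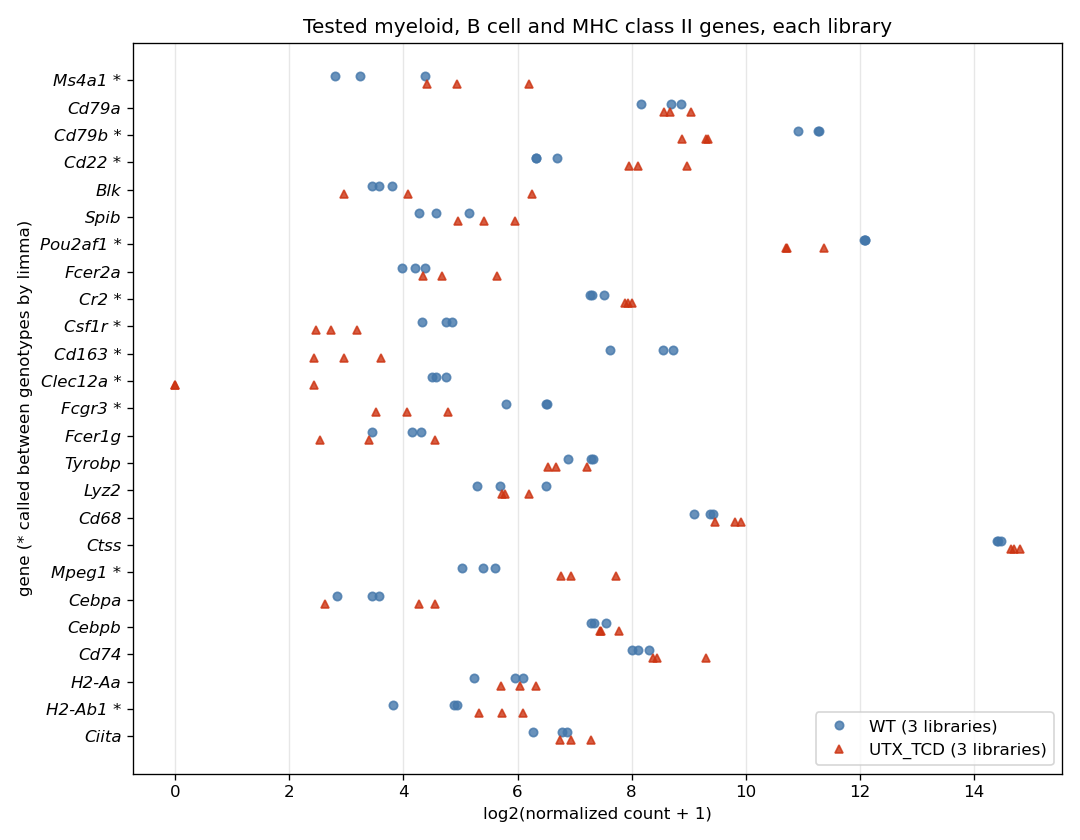
Normalized counts of the 25 tested genes on a log2(normalized count + 1) axis, with circles for the 3 WT and triangles for the 3 UTX TCD libraries and an asterisk at the 11 genes called by limma. *Cd163* shows the widest gap between genotypes, and *Ctss* the highest counts.

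The group of 10 myeloid surface and signalling genes held 4 of the 6 genes that fell. Its summed normalized count was 751, 492 and 648 in WT and 209, 139 and 165 in UTX TCD libraries, and *Cd163* made up 52.7% of the mean sum in WT and 4.36% in UTX TCD cells, where *Tyrobp* led with 66.5%. Of its 6 tested genes, 4 were called lower and 0 higher, and the other 2 overlapped between genotypes. *Cd163*, the scavenger receptor of macrophages for haptoglobin-bound hemoglobin, was counted at 425, 196 and 375 in WT and at 6.75, 11.2 and 4.42 in UTX TCD libraries. The genotypes were far apart, and the highest UTX TCD value, in replicate 2, rested on 14 reads. The ratio of the means was 44.5-fold lower in UTX TCD cells, and the fit gave -5.30 on the log2 scale (SE 0.39, adjusted p = 1.44e-05), and -5.02 without UTX TCD replicate 3 (adjusted p = 6.58e-05).

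*Fcgr3*, a low-affinity receptor for immunoglobulin G, was counted at 90.1, 54.3 and 90.0 in WT and 15.7, 10.4 and 26.5 in UTX TCD libraries. No UTX TCD library reached the lowest WT library, which gave a fold change on the log2 scale of -2.15 (SE 0.38, adjusted p = 0.00201), or -2.48 without UTX TCD replicate 3 (adjusted p = 0.00121). *Fcgr3* shares sequence with the neighbouring *Fcgr2b*, so the split of reads between them is uncertain. *Csf1r*, the receptor for the macrophage growth factor M-CSF, was counted at 27.7, 25.7 and 19.1 in WT and 4.50, 5.61 and 8.11 in UTX TCD libraries. These groups did not overlap either, although the UTX TCD values rested on 2, 7 and 11 reads, for a fold change on the log2 scale of -1.85 (SE 0.39, adjusted p = 0.00496), or -2.04 without UTX TCD replicate 3 (adjusted p = 0.00520). In GENCODE vM21 the exons of *Csf1r* overlap those of *Hmgxb3*, on the opposite strand and at a mean of 11758.8 in WT, over 873 bases, whereas the RefSeq positions of the genes do not overlap. The annotation and strand setting behind the counts were not stated, so whether any *Csf1r* reads belong to *Hmgxb3* was not tested.

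*Clec12a*, an inhibitory C-type lectin of myeloid cells, was counted at 22.8, 21.7 and 25.9 in WT and 0, 0 and 4.42 in UTX TCD libraries. The UTX TCD values stood for 0, 0 and 6 reads against 23, 22 and 34 in WT, for a fold change on the log2 scale of -3.80 (SE 0.70, adjusted p = 0.00253), or -4.61 without UTX TCD replicate 3 (adjusted p = 0.000314). Without WT replicate 3 the mean of *Clec12a* fell below the filter, so it was not tested there. The adaptors that carry signals for many of these receptors gave no call. *Tyrobp*, which encodes the ITAM adaptor DAP12, was counted at 155, 159 and 117 in WT and 148, 101 and 92.1 in UTX TCD libraries. The genotypes overlapped (log2 fold change -0.35, SE 0.23, adjusted p = 0.251). *Fcer1g*, the ITAM chain shared by Fc receptors, lay between 4.80 and 22.5 in the 6 libraries and also overlapped (log2 fold change -0.47, SE 0.55, adjusted p = 0.531).

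The remaining myeloid surface genes were near the floor. *Adgre1*, which encodes the macrophage marker F4/80, was read 8, 6 and 12 times in WT and 2, 6 and 12 times in UTX TCD libraries. *Fcgr1*, the high-affinity receptor for immunoglobulin G, had between 0 and 13 reads, *Cd14*, a coreceptor for bacterial lipopolysaccharide, between 0 and 4, and *Clec4n*, which encodes dectin-2, had 2 reads in UTX TCD replicate 3 and 0 elsewhere. For these 4 genes an exact permutation test over the libraries, two-sided, gave p = 0.30, 0.80, 0.70 and 1.00 in the order named. With 3 libraries against 3 that test cannot go below 0.10.

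Of the genes of the lysosome, of complement and of pore formation, *Mpeg1* was called. *Mpeg1* encodes perforin-2, a pore-forming protein that macrophages use against ingested bacteria. It was counted at 31.7, 47.4 and 41.2 in WT and 121, 107 and 211 in UTX TCD libraries, so each UTX TCD library was above each WT library. The ratio of the means was 3.65-fold, and the log2 fold change 1.79 (SE 0.29, adjusted p = 0.00135), and *Mpeg1* was also called without UTX TCD replicate 3, at a ratio of 2.84 (adjusted p = 0.00303). *Ctss*, which encodes the protease cathepsin S that trims the invariant chain, was counted at 21980, 21876 and 22796 in WT and 25720, 26692 and 28706 in UTX TCD libraries. The groups did not overlap, but the difference (log2 fold change 0.28, SE 0.05, adjusted p = 0.00183) was under the fold limit. Per kb of merged exon length *Ctss* stood at 16360.4 normalized counts in WT, the 97.8th percentile of the 13757 tested genes with a length. It made up 96.4% of the summed count of its group of 7 genes, which was 22757, 22695 and 23428 in WT and 26876, 27585 and 29888 in UTX TCD libraries.

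*Cd68*, a lysosomal membrane glycoprotein, was counted at 685, 667 and 544 in WT and 972, 703 and 896 in UTX TCD libraries. All UTX TCD values were above all WT values, and the difference (log2 fold change 0.43, SE 0.14, adjusted p = 0.0377) was again under the fold limit. Without UTX TCD replicate 2 *Cd68* was called (log2 fold change 0.57, adjusted p = 0.0141), whereas without each of the other libraries its adjusted p was between 0.0528 and 0.120. *Lyz2*, the lysozyme gene of macrophages and neutrophils, was counted at 50.5, 89.8 and 38.1 in WT and 51.7, 72.9 and 53.8 in UTX TCD libraries, and its genotypes overlapped fully (log2 fold change 0.07, SE 0.33, adjusted p = 0.877). The complement genes *C1qa*, *C1qb* and *C1qc*, which macrophages express together, had at most 16 reads in any library. Their exact permutation p was 0.60, 0.10 and 1.00, and *C1qb* rested on at most 2 reads. Of the 7 genes, 4 were tested, 1 was called higher and 0 lower, with a median log2 fold change of 0.36.

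The myeloid transcription factors and the dendritic cell genes gave no call. *Cebpb*, a C/EBP factor also used outside myeloid cells, was counted at 155, 162 and 186 in WT and 175, 173 and 220 in UTX TCD libraries. These values overlapped (log2 fold change 0.17, SE 0.16, adjusted p = 0.440). *Cebpa*, the C/EBP factor of granulocyte and monocyte progenitors, was counted at 10.9, 9.87 and 6.10 in WT and 22.5, 18.4 and 5.16 in UTX TCD libraries. UTX TCD replicate 3 was the lowest of all 6, and *Cebpa* gave no call with it (log2 fold change 0.54, SE 0.56, adjusted p = 0.481) or without it (1.14, adjusted p = 0.0663). *Spi1*, which encodes PU.1, was read 7, 7 and 8 times in WT and 2, 14 and 6 times in UTX TCD libraries (exact permutation p = 1.00). *Flt3*, the growth factor receptor of dendritic cell progenitors, had 2 to 15 reads and *Siglech*, a lectin of plasmacytoid dendritic cells, 0 to 9, each with an exact permutation p of 0.50. The summed counts were 172, 179 and 198 in WT and 202, 203 and 229 in UTX TCD libraries for the 3 transcription factors, of which 2 were tested, with 0 called by limma, edgeR or DESeq2 and 0 at an unadjusted p under 0.05. They were 16.8, 14.8 and 6.10 against 6.75, 9.61 and 3.69 for the 2 dendritic cell genes.

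Among the 11 B cell genes, 9 were tested, 3 were called higher and 2 lower, with a median log2 fold change of 0.69, or 0.32 without UTX TCD replicate 3. Their summed count was lower in UTX TCD cells, at 7546, 7158 and 7428 in WT and 3487, 3346 and 4486 in UTX TCD libraries. *Pou2af1* made up 57.1% of it. Without *Pou2af1* and *Cd79b*, the 2 most abundant genes, the other 9 summed to 721, 838 and 587 in WT and 1158, 1018 and 1373 in UTX TCD libraries, so the lower sum rested on these 2 genes and the remainder lay in the opposite direction. That sum was added after the values were seen. *Cd79b*, one of the 2 signalling chains of the B cell receptor, was counted at 2502, 1930 and 2465 in WT and 648, 633 and 470 in UTX TCD libraries. The groups were well separated, the ratio of the means was 3.94-fold lower and the log2 fold change -1.98 (SE 0.15, adjusted p = 1.47e-05), or -1.83 without UTX TCD replicate 3 (adjusted p = 3.53e-05). Its partner *Cd79a* was counted at 415, 465 and 285 in WT and 526, 407 and 380 in UTX TCD libraries. *Cd79a* thus overlapped between genotypes (log2 fold change 0.19, SE 0.20, adjusted p = 0.489). Per kb of merged exon length the chains were unequal in WT, with 1606.6 normalized counts for *Cd79b* and 267 for *Cd79a*, which put them at the 68.1th and 35.1th percentiles of tested genes.

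*Pou2af1*, which encodes OCA-B, a coactivator of the OCT1 and OCT2 factors, was counted at 4323, 4389 and 4376 in WT and 1680, 1696 and 2643 in UTX TCD libraries. The WT libraries were close together and all UTX TCD libraries were below them, giving a fold change on the log2 scale of -1.15 (SE 0.15, adjusted p = 0.000398), or -1.37 without UTX TCD replicate 3 (adjusted p = 2.29e-06). The next genes, which rose, encode receptors that dampen or tune B cell receptor signals. *Cd22*, an inhibitory lectin, was counted at 79.2, 102 and 79.3 in WT and 277, 247 and 502 in UTX TCD libraries. The groups did not overlap, giving a fold change on the log2 scale of 1.90 (SE 0.26, adjusted p = 0.000535), or 1.59 without UTX TCD replicate 3 (adjusted p = 0.000575). *Cr2*, which encodes complement receptors 1 and 2, was counted at 158, 183 and 153 in WT and 234, 255 and 245 in UTX TCD libraries. These groups were also apart, giving a fold change on the log2 scale of 0.58 (SE 0.14, adjusted p = 0.0112), or 0.57 without UTX TCD replicate 3 (adjusted p = 0.0214). Without UTX TCD replicate 2 the adjusted p of *Cr2* was 0.0502 and the call was lost, as it was with a fold change over 1.5, the limit in the methods of the study.

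*Ms4a1*, which encodes the B cell antigen CD20, was counted at 5.94, 19.7 and 8.39 in WT and 20.2, 29.6 and 73.0 in UTX TCD libraries. The groups touched without overlapping, giving a fold change on the log2 scale of 1.72 (SE 0.56, adjusted p = 0.0367). That call was lost without WT replicate 1 (log2 fold change 1.38, adjusted p = 0.119), WT replicate 3 (1.60, adjusted p = 0.0894), UTX TCD replicate 2 (1.84, adjusted p = 0.0682) or UTX TCD replicate 3 (1.21, adjusted p = 0.112). *Blk*, a Src-family kinase of B cells, was counted at 12.9, 10.9 and 9.91 in WT and 6.75, 16.0 and 75.2 in UTX TCD libraries. *Blk* was high in UTX TCD replicate 3 alone, and gave no call with that library (log2 fold change 0.83, SE 0.72, adjusted p = 0.398) or without it (-0.08, adjusted p = 0.907). *Fcer2a*, the low-affinity receptor for immunoglobulin E, was counted at 19.8, 14.8 and 17.5 in WT and 24.7, 19.2 and 48.7 in UTX TCD libraries, and *Spib*, an ETS factor of B cells and plasmacytoid dendritic cells, lay between 18.3 and 60.7. Neither passed the test, at adjusted p = 0.189 for *Fcer2a* and 0.114 for *Spib*, and both overlapped between genotypes. Without UTX TCD replicate 3 their log2 fold changes were 0.32 (adjusted p = 0.494) and 1.02 (adjusted p = 0.0577).

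The factors that define the B cell lineage were close to the floor. *Pax5* was read 2, 4 and 14 times in WT and 2, 0 and 15 times in UTX TCD libraries, and *Ebf1* 6, 5 and 6 times in WT and 2, 2 and 10 times in UTX TCD libraries. Their exact permutation p was 1.00 for *Pax5* and 0.70 for *Ebf1*.

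**Figure D2:**
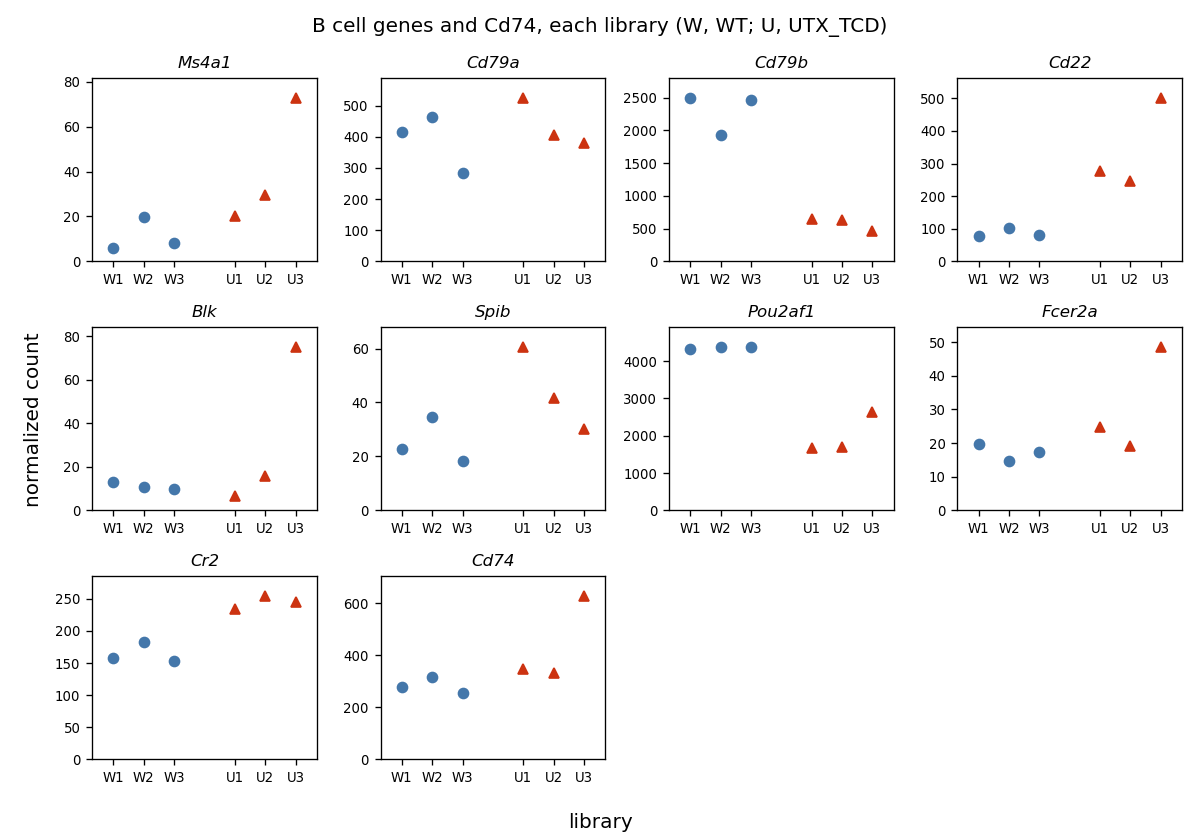
Normalized counts of the 9 tested B cell genes and *Cd74* in each library, with WT replicates as circles and UTX TCD replicates as triangles and each panel starting at 0. *Blk*, *Ms4a1* and *Cd74* are highest in UTX TCD replicate 3, at 75.2, 73.0 and 630, while *Cd79b* and *Pou2af1* are low in all 3 UTX TCD libraries.

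All 4 MHC class II genes were tested, with 1 called higher, 0 lower and a median log2 fold change of 0.46, or 0.32 without UTX TCD replicate 3. *H2-Ab1*, a chain of the class II molecule I-A, was counted at 29.7, 28.6 and 13.0 in WT and 67.5, 52.0 and 39.1 in UTX TCD libraries. The groups did not overlap (log2 fold change 1.17, SE 0.38, adjusted p = 0.0351), but the call was lost without WT replicate 3 (0.80, adjusted p = 0.0985), UTX TCD replicate 1 (0.98, adjusted p = 0.108) or UTX TCD replicate 2 (1.17, adjusted p = 0.0890), and with no filter on low counts (1.17, adjusted p = 0.0545). It was kept without UTX TCD replicate 3 (log2 fold change 1.37, adjusted p = 0.0321). Its partner chain *H2-Aa* was counted at 67.4, 61.2 and 36.6 in WT and 65.2, 51.2 and 78.9 in UTX TCD libraries, with no call (log2 fold change 0.26, SE 0.29, adjusted p = 0.513). *Cd74*, the invariant chain, was counted at 277, 315 and 255 in WT and 346, 333 and 630 in UTX TCD libraries. Its groups did not overlap, yet limma did not call it with UTX TCD replicate 3 (log2 fold change 0.57, SE 0.23, adjusted p = 0.0813) or without it (0.27, adjusted p = 0.155). DESeq2 called *Cd74*. *Ciita*, the master regulator of class II transcription, was counted at 116, 109 and 76.3 in WT and 155, 106 and 121 in UTX TCD libraries and overlapped (log2 fold change 0.35, SE 0.23, adjusted p = 0.264). In GENCODE vM21 the exons of *Ciita* overlap those of *Dexi* on the opposite strand over 329 bases. The summed count of the 4 genes was 490, 513 and 381 in WT and 634, 542 and 868 in UTX TCD libraries, with *Cd74* at 62.9% of it.

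Other genes of the same lineages, taken as lists, moved in both directions as well. Of 30 other B cell genes, 20 were tested, 7 were called higher and 2 lower by limma, and 4 and 2 by DESeq2, with a median log2 fold change of 0.47. With 1 library left out that median ranged from 0.29 (UTX TCD replicate 3) to 0.81 (WT replicate 2), and was 0.73 without WT replicate 1. Their sum was 139150, 125275 and 130173 in WT and 131045, 125019 and 117901 in UTX TCD libraries, and *Ighm*, the immunoglobulin μ heavy chain, made up 74.9% of it. *Ighm* was counted at 111647, 94692 and 103781 in WT and 94839, 89654 and 81282 in UTX TCD libraries (log2 fold change -0.22, SE 0.07, adjusted p = 0.0402, under the fold limit), which in WT was the 99.5th percentile of tested genes per kb. The κ light chain *Igkc*, in contrast, was counted at 34.7, 43.4 and 23.6 in WT and 81.0, 55.3 and 117 in UTX TCD libraries. *Igkc* was called higher (log2 fold change 1.27, SE 0.34, adjusted p = 0.0159), but not without WT replicate 3, where its log2 fold change was 1.04. The call was kept without UTX TCD replicate 3, at a log2 fold change of 1.00. Among the called genes of this list the log2 fold change was highest for *Siglecg*, an inhibitory lectin (log2 fold change 2.40, SE 0.54, adjusted p = 0.00726, tested only through its UTX TCD libraries) and then for *Cxcr5*, the receptor for the follicle chemokine CXCL13 (log2 fold change 1.45, SE 0.12, adjusted p = 2.63e-05). Without UTX TCD replicate 3, highest for both, *Siglecg* fell below the filter and was not tested, and *Cxcr5* stood at 1.31 (adjusted p = 3.25e-05). The genes called lower were *Ighd*, the δ heavy chain (log2 fold change -0.64, SE 0.12, adjusted p = 0.00302), and *Tnfrsf13c*, the BAFF receptor (log2 fold change -0.54, SE 0.13, adjusted p = 0.0109). *Tnfrsf13c* was under the fold limit without WT replicate 2 (-0.41) or UTX TCD replicate 2 (-0.48).

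Of 30 other monocyte and macrophage genes, 20 were tested, 5 were called higher and 4 lower, with a median log2 fold change of 0.41 that ranged from 0.21 (without WT replicate 3) to 0.49 (without WT replicate 2) with 1 library left out, and was 0.28 without UTX TCD replicate 1. The sum was 20702, 23261 and 18575 in WT and 14911, 12918 and 13690 in UTX TCD libraries, led in WT by *Ncf1* at 31.9% and in UTX TCD by *Ms4a6c*, a membrane protein of the MS4A family, at 40.5%, and *Trem2* had 0 reads in every library. *Ncf1*, a subunit of the phagocyte NADPH oxidase, was counted at 5479, 8640 and 5806 in WT and 936, 1064 and 1288 in UTX TCD libraries. It was lower in all UTX TCD libraries (log2 fold change -2.58, SE 0.17, adjusted p = 8.62e-06), as was *Itgam*, which encodes the integrin chain CD11b, at 453, 434 and 460 against 72.0, 91.3 and 64.1. *Csf2ra*, a chain of the GM-CSF receptor, was counted at 494, 427 and 406 in WT and 1833, 1463 and 1424 in UTX TCD libraries and was called higher (log2 fold change 1.82, SE 0.12, adjusted p = 9.01e-06).

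The 16 ITAM and Src-family partners, the signalling proteins around *Tyrobp*, *Fcer1g* and the CD79 chains, were all tested. Of them 3 were called higher and 2 lower, with a median log2 fold change of 0.04, and their sum of 648719, 618949 and 659997 in WT and 609362, 618297 and 573745 in UTX TCD libraries was led by the T cell kinase *Lck* at 26.6%. *Syk*, the kinase that binds phosphorylated ITAMs in B and myeloid cells, was counted at 23.8, 27.6 and 20.6 in WT and 87.7, 60.1 and 87.0 in UTX TCD libraries. It rose (log2 fold change 1.65, SE 0.27, adjusted p = 0.00122), whereas the Src-family kinase gene *Fgr* fell from 1590, 1563 and 1534 to 288, 323 and 433 (log2 fold change -2.18, SE 0.14, adjusted p = 8.08e-06). *Hcst*, which encodes the adaptor DAP10 and lies next to *Tyrobp* on chromosome 7, was counted at 3745, 3085 and 3099 in WT and 1871, 1482 and 1496 in UTX TCD libraries. It was called lower (log2 fold change -1.04, SE 0.11, adjusted p = 0.000113), unlike its neighbour *Tyrobp*.

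Of 17 other genes of the MHC class II pathway, 16 were tested, 2 were called higher and 1 lower, with a median log2 fold change of 0.02. Their sum was 80682, 86349 and 81897 in WT and 79768, 80278 and 81408 in UTX TCD libraries, with the widely expressed factor *Creb1* at 40.4% of it. *Lgmn*, a lysosomal endopeptidase (log2 fold change 0.72, SE 0.21, adjusted p = 0.0241), and *Ifi30*, a lysosomal thiol reductase (log2 fold change 0.61, SE 0.12, adjusted p = 0.00279), rose. *H2-Ob*, a chain of the peptide-loading modulator DO, fell (log2 fold change -0.53, SE 0.09, adjusted p = 0.00161). Of 15 other dendritic cell genes, 10 were tested, 2 were called higher and 1 lower, with a median of 0.11. Their sum of 103483, 121834 and 104553 in WT and 105132, 106722 and 85681 in UTX TCD libraries was led by the chemokine receptor *Ccr9* at 78.5%. *Itgax*, which encodes CD11c, was counted at 48.5, 24.7 and 55.7 in WT and 0, 0 and 4.42 in UTX TCD libraries (log2 fold change -4.57, SE 0.71, adjusted p = 0.00103, tested only through its WT libraries), while *Bst2*, an antiviral membrane protein (1.05, SE 0.08, adjusted p = 1.84e-05), and the transcription factor *Tcf4* (0.92, SE 0.15, adjusted p = 0.00144) rose.

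Markers of further cell types that a sort from lymph node could carry were counted as well. Of 10 neutrophil genes, 4 including *S100a8* had 0 reads in every library, 2 were tested and *Cxcr2*, a chemokine receptor, was called lower (log2 fold change -0.71, SE 0.08, adjusted p = 0.000173). *Cxcr2* made up 98.0% of the neutrophil sum of 1055, 1046 and 1032 in WT and 682, 618 and 652 in UTX TCD libraries. Of 6 CD4 and regulatory T cell markers, all were tested, 0 were called higher and 2 lower, and their sum was 1702, 1807 and 1638 in WT and 1602, 1565 and 2144 in UTX TCD libraries, led by *Ctla4* at 45.1%. *Cd4* was counted at 90.1, 104 and 83.1 in WT and 58.5, 68.1 and 41.3 in UTX TCD libraries (log2 fold change -0.74, SE 0.24, adjusted p = 0.0384), a call that DESeq2 did not make and that was lost without any of WT replicates 1, 2 or 3 or UTX TCD replicates 1 or 3. *Zbtb7b*, the factor of the CD4 fate, fell as well (log2 fold change -1.85, SE 0.44, adjusted p = 0.00950), and *Foxp3* lay between 235 and 317. Of 8 NK and innate lymphoid markers, 5 were tested and 2 called higher, among them the receptor *Klre1* (log2 fold change 2.15, SE 0.34, adjusted p = 0.00104). *Ncr1*, the defining NK receptor of that list, was at 6.93 in WT replicate 1, 2.95 in UTX TCD replicate 3 and 0 elsewhere, while *Il7r*, which T cells also express, made up 86.9% of the sum of 43938, 84585 and 43115 in WT and 47710, 47483 and 46949 in UTX TCD libraries.

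Of 8 listed erythroid and platelet markers, 3 were tested and limma, edgeR and DESeq2 called 0, with 0 at an unadjusted p under 0.05, and *Hbb-bs*, a β globin, lay between 0 and 16.2, highest in UTX TCD replicate 3. Their sum was 642, 617 and 561 in WT and 619, 539 and 674 in UTX TCD libraries, with the platelet integrin *Itga2b* at 65.2%. Of 9 stromal and endothelial markers, 4 were tested and limma, edgeR and DESeq2 called 0, with 1 at an unadjusted p under 0.05. *Cdh5*, the endothelial cadherin, was at 24.8, 21.7 and 9.91 in WT and 0 in all UTX TCD libraries. That was at least 4.96-fold lower when the UTX TCD mean is set at 3 reads per library, and *Cdh5* lay below the filter. The tested genes lay in the other direction, with a median log2 fold change of 0.27. They were *Pecam1* (0.22), *Pdgfrb* (0.26), *Col1a1* (0.28) and *Col3a1* (0.53). *Pecam1*, which T cells also express, made up 97.3% of the stromal and endothelial sum of 32118, 29936 and 32311 in WT and 38064, 38222 and 34071 in UTX TCD libraries. Of 9 pancreas markers, 2 were tested and *Cela1*, an elastase gene, was called lower (log2 fold change -1.73, SE 0.39, adjusted p = 0.00683), having passed the filter only through its WT libraries. *Ins2* had 0 reads and *Cpa1* at most 2 in every library, and *Prss2* made up 87.9% of the sum of 204, 180 and 155 in WT and 144, 131 and 115 in UTX TCD libraries. How far RNA from any other cell type contributed to the values of the 37 genes was not tested.

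ATAC-seq reads out how open chromatin is to a transposase. Peaks were included in the table because they differed between genotypes in the analysis deposited with them. For 23932 peaks the table gave the authors' mean log2 concentration per genotype, without values per library, so a difference of these means carries no spread and no test. Of the 37 genes, 19 were the gene named for at least 1 peak, with 38 peaks in all. Over all 25860 listed genes, 37.8% were named for a peak, and over the tested genes 47.6% were. Of the 38 peaks, 23 had a higher mean in UTX TCD and 15 a lower one, or 60.5% higher against 68.8% of all peaks in the table. The median difference, UTX TCD minus WT, was 0.37 on the log2 scale for these peaks and 0.49 for all peaks. By the annotation of the peaks, 21 were called intergenic, although 6 of these overlap another gene in RefSeq, 7 in introns, 6 at promoters, 2 in exons, 1 in a 5′ untranslated region and 1 at a transcript end. Of the 11 called genes, 8 had a peak (72.7%), against 65.4% of all called genes.

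Among the genes that fell, *Cd163* had 1 peak, in exon 11 of 17 at chr6:124320305-124320705 (GRCm38, the build of the files). Its authors' mean was 6.95 in WT and 4.92 in UTX TCD, a difference of -2.03. *Cd79b* had 1 peak, with means of 8.83 and 7.59. *Clec12a* had 1 peak in intron 4 of 5, with means of 6.71 and 6.04. All of these were lower in UTX TCD, as were all 4 peaks of *Pou2af1*. Those lay between 27584 and 48061 bases from its start site, with differences of -1.01, -1.23, -0.71 and -1.13, and none was at its promoter. *Csf1r* and *Fcgr3* had no peak in the table.

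Among the genes that rose, *Mpeg1* had 4 peaks, of which the one 3212 bases upstream, at chr19:12457358-12457758, went from an authors' mean of 4.61 to 6.45, a difference of 1.84. Of the other 3 peaks of *Mpeg1*, 1 overlapped the end of the neighbouring gene *Dtx4* (-0.55) and 2 lay in its introns (0.56 and 0.38). *Cr2* had a promoter peak at chr1:195176569-195176969, 50 bases upstream of its start, with means of 8.65 in WT and 9.70 in UTX TCD. A second *Cr2* peak, 56080 bases away, differed by 0.47. *Cd22* had 2 peaks upstream with differences of 0.83 and 0.59, the former over the noncoding gene *D7Ertd128e*, and *H2-Ab1* had 2, at 5400 bases upstream (0.51) and at its promoter (0.27). *Ms4a1* had none.

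**Figure D3:**
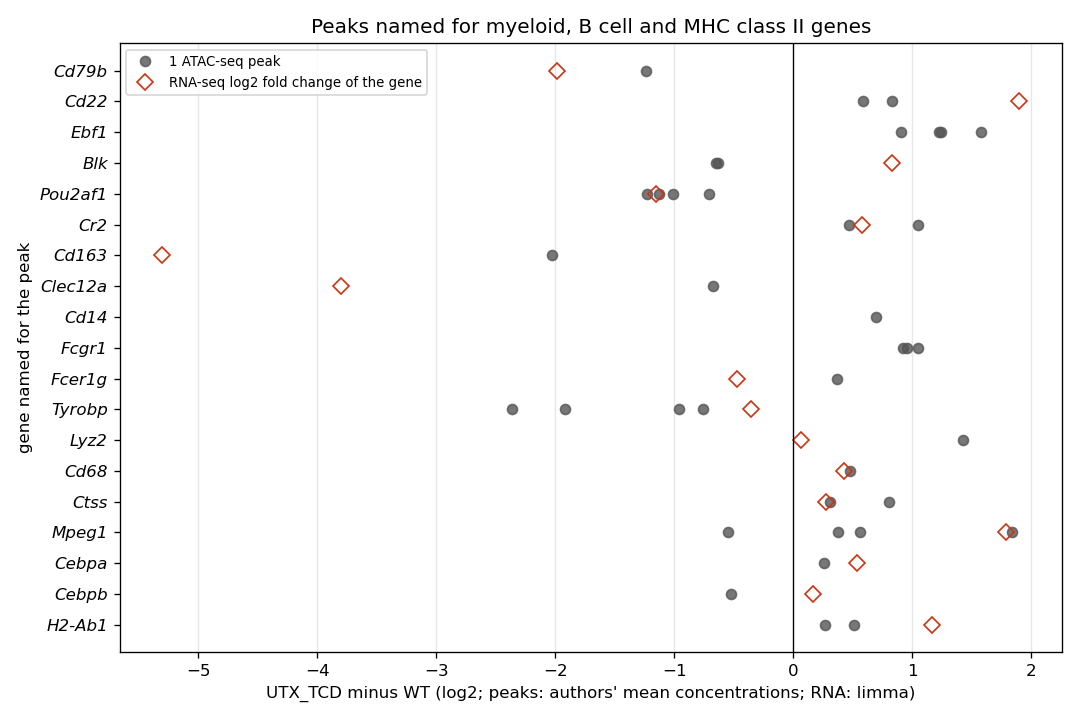
Difference of the authors' mean log2 concentrations, UTX TCD minus WT, for each of the 38 peaks (filled circles), with the RNA-seq log2 fold change of the same gene where it was tested (open diamonds). *Tyrobp* and *Pou2af1* have 4 lower peaks each and *Ebf1* 4 higher peaks.

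Some genes had peaks without a change in RNA that passed the test. *Tyrobp* had 4 peaks, all lower in UTX TCD, among them the peak with the greatest difference of the 38, at chr7:30410963-30411363 and 2619 bases upstream, where the means were 6.58 and 4.21, a difference of -2.36. The peak annotated to its promoter, which like the former lies over the noncoding gene *Gm32029*, differed by -1.92 and the others by -0.96 and -0.76. *Hcst*, on the far side of *Tyrobp*, was named for 1 peak, which was also lower. *Ebf1* had 4 peaks, all higher, with differences of 0.91, 1.24, 1.23 and 1.58 from upstream of the promoter to intron 1 of 15, while its RNA had at most 10 reads in any library. *Fcgr1* had 3 higher intergenic peaks, with differences of 0.92, 0.96 and 1.05, at no more than 13 reads of RNA. *Blk* had 2 lower peaks (-0.63 and -0.65), and its RNA gave no call.

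The other peaks were single or small. *Lyz2* had a peak 7249 bases from its start site that went from 4.88 to 6.31, a difference of 1.43, beside an RNA log2 fold change of 0.07. *Ctss* had 2 higher peaks upstream (0.81 and 0.31), *Cd68* a higher promoter peak (0.48), *Cebpa* a higher promoter peak (0.26), and *Cebpb* a lower peak 10586 bases upstream (-0.52). *Cd14* had a higher peak in exon 2 of 2 (0.70) with at most 4 reads of RNA. The peak named for *Fcer1g* (0.37) lay 4343 bases upstream of its start site and was higher.

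The central 300 bases of 3 peaks are shown. That of *Tyrobp* had the greatest difference of means of all 38 peaks, and those of *Cd163* and *Mpeg1* had the greatest among the peaks of called genes. They were chosen after the values were seen. Each was searched on both strands for 7 motifs, and the bases in capitals are matches. The motifs were GAGGAAGT (PU.1), CAGGAAGT (other ETS factors), TGTGGTTT (RUNX), CTTTGAA (TCF1), CAGCTG (E-box), TCCC and GGGA with 2 free bases between (EBF) and TGANTCA (AP-1). Among 23907 windows of the same length at the centre of peaks of the usual width in the table, 5.96% held the PU.1 letters, 9.56% the ETS, 7.03% the RUNX, 9.49% the TCF1, 19.9% the E-box, 0.548% the EBF and 10.3% the AP-1 letters. Among the 38 peaks of the genes examined, 2, 3, 2, 3, 7, 0 and 3 windows held them, in the same order. All 3 sequences are from the plus strand of the RefSeq assembly GRCm38.p6 and hold no annotated untranslated region. The *Tyrobp* window, upstream of the gene and within *Gm32029* at chr7:30411013-30411312, holds the TCF1 letters on the minus strand and an E-box. The *Cd163* window, over exon 11 at chr6:124320355-124320654, holds an E-box. The *Mpeg1* window, upstream of the gene at chr19:12457408-12457707, holds the PU.1 letters on the plus strand.
Tyrobp: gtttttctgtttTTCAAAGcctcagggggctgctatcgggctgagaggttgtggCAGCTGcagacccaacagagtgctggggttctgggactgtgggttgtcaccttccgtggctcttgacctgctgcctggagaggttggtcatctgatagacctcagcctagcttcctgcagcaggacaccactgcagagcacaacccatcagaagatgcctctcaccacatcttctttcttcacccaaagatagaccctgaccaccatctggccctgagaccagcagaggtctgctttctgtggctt
Cd163: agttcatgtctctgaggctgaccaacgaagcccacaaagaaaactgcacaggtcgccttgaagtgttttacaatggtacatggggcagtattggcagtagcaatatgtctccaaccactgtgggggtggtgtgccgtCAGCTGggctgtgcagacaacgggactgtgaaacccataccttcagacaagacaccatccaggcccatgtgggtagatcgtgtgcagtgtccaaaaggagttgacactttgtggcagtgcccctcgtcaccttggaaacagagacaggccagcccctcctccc
Mpeg1: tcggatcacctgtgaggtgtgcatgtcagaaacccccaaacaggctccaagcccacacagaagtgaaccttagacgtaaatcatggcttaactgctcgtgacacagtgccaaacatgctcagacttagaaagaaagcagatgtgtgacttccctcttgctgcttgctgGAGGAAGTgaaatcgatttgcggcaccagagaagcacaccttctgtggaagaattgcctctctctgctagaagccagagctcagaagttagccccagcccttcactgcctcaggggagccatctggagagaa
A match is a run of letters and says nothing of whether a factor binds there.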

How the data were processed

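RNA-seq and ATAC-seq were each measured in 3 WT and 3 UTX TCD libraries, grouped by the sample labels. For RNA-seq the authors used HISAT2 2.2.1 for alignment to mm10, featureCounts for counting and DESeq2 for size factors. The annotation and strand setting were not stated, and reads of NOD mice were set against a C57BL/6J assembly, and the effect on polymorphic genes such as those of MHC class II was not tested. The deposited signal per gene is a count over the library's size factor. Within a tolerance of 0.01 read, 100% of the values in every library were whole multiples of 1 step, which gave the whole reads. In WT replicates 1 and 2 the step is near 1 (0.991 and 0.987), where that test tells a scaled count from a whole one less sharply. The authors' RNA-seq table also holds a log2 fold change, its error and an adjusted p, which were not used.

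For ATAC-seq the authors trimmed reads with cutadapt, aligned them with Bowtie2, removed duplicates with Picard, called peaks with MACS2, and computed with DiffBind the log2 mean concentration per genotype used here. The sources give no correction for the transposase offset. The table's overall concentration, fold, p and FDR columns, which hold the authors' comparison, were not used.

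limma 3.58.1 in R 4.3.3 (lmFit, eBayes with trend) was fitted over all genes with genotype as the only term, and edgeR 4.0.16 and DESeq2 1.42.0 on the recovered reads were alternatives. They called 2541 and 2422 genes, against 2538 by limma. On simulated reads with 199 changed genes they recovered 171 (limma), 173 and 170, with 13 to 14 false calls. Members below the filter were compared by an exact permutation test. Merged exon lengths came from GENCODE vM21. Alternatives also covered the pseudocount, filter, scaling, replicate block, fold limits, distance and size limits of peaks and each library left out. The 37 genes and the lists were chosen with earlier results of these data known. The genes named are all 37, *Kdm6a*, defining markers of each list and, per other list, up to 2 called genes with the highest and 2 with the lowest log2 fold change. Not every gene and sequence chosen this way is reported here. Pairs of replicates within a genotype differed by more than sampling noise. The methods call the replicates biological for ATAC-seq, and RNA-seq reads without molecular identifiers make limits of 3 reads cover counting error only.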

Additional observations from a re-analysis of the deposited data

How the results depend on the processing

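Of the 11 calls among the 37 genes, *Cd163*, *Cd79b*, *Pou2af1*, *Cd22* and *Mpeg1* held under all 17 alternatives, and no called gene named here changed direction under any. The log2 fold changes of *Clec12a* and *Csf1r* were smaller with a pseudocount of 8, at -1.76 and -1.19, and both genes were still called. With a mean of at least 50, 15 of the 37 genes were tested and 6 were called (3 higher, 3 lower). Leaving out 1 library gave 8 to 11 calls, 3 to 5 higher and 5 to 6 lower, and 2162 to 2572 over all genes. *Ms4a1*, *H2-Ab1*, *Cr2* and *Clec12a* lost their calls in some of these, with WT replicate 3 (8 left) and UTX TCD replicate 2 (9 left, with *Cd68* gained) mattering most. *H2-Ab1* also lost its call with no filter (10 called), and *Cr2* its call at a fold change over 1.5, the limit in the methods. DESeq2 called 12, adding *Cd74*, and edgeR 11. Without a fold limit 13 were called, adding *Cd68* and *Ctss*, of 5887 genes in all.

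With the replicate block the count was 11, the same genes, and 2474 genes over the whole table. Same-numbered libraries are different mice, and their deviations correlated at 0.305, -0.200 and 0.090, so they were not treated as paired.

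The log2 ratio of mean summed counts, UTX TCD over WT, moved without the most abundant gene of each group from -0.97 to -0.77 for B cell genes, from -1.88 to -0.86 for myeloid surface genes, from 0.29 to 0.54 for lysosome, complement and pore genes, from 0.21 to 0.50 for myeloid transcription factors and from -0.91 to -1.93 for dendritic cell genes. Without the 2 most abundant genes, an alternative chosen after seeing the data, the B cell ratio changed sign to 0.73, so its direction rested on *Pou2af1* and *Cd79b*. The others stood at -1.63 for surface, 1.00 for lysosome, 0.01 for transcription factor and 0.58 for MHC class II genes, and no dendritic cell gene was left. With 1 library left out the ratios of all genes ranged from -1.11 to -0.89, -2.05 to -1.74, 0.25 to 0.32, 0.15 to 0.27 and -1.27 to -0.62 in the order above, and from 0.35 to 0.70 for the MHC class II genes (0.56 with all). As a share of all reads the lysosome group stood at 0.36. Within 1 kb of a start site 9 genes had a peak instead of 19, and 9 had one with means differing by over 1. No library could be left out of the ATAC-seq means, which are pooled. Low genes are limited by depth most in UTX TCD replicate 1, where 3 reads stand for 6.75 normalized counts.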
